A study of Mus musculus with 35 samples.

Results

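Wnt ligands are the secreted proteins that start Wnt signalling, and 10 of their genes are described here, of 23366 genes in the RNA table: Wnt1, Wnt3, Wnt3a, Wnt4, Wnt5a, Wnt5b, Wnt7a, Wnt7b, Wnt8b and Wnt11. They were listed by name, with their library-size-normalised counts (CPM) in these same RNA libraries already known, so their levels and fold changes are given as a description, without p-values. All 10 passed the filter on low counts. The study sorted mouse cranial neural crest, the migratory embryonic cells that form much of the facial skeleton, at E12.5, a stage of facial growth in midgestation. Cells came from the head rostral of the maxilla, in front of the otic vesicle, and were kept if they carried the Rosa-Tomato reporter that Wnt1-Cre switches on and excluded the dye DAPI. Every group carried Wnt1-Cre, a recombinase driven by regulatory sequence of Wnt1, which is itself among the ligands. The wild type was male and labelled WT for Utx (libraries wt1 and wt2). The male knockout was Utx fl/y (mko1 and mko2) and the female knockout Utx fl/fl (fko1 and fko2), Utx being the histone H3 lysine 27 demethylase gene Kdm6a. Sex and genotype therefore cannot be told apart in the female comparison, and the labels do not say how many embryos went into a library.

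Wnt proteins carry a lipid that is added by Porcupine (Porcn) and are taken to the cell surface by Wntless (Wls). They bind Frizzled receptors. With the coreceptors Lrp5 or Lrp6 they stabilise beta-catenin, which acts with TCF/LEF factors on target genes, and with Ror2 or Ryk they act on cell polarity and movement. In the embryonic head, Wnt1, Wnt3a, Wnt7a, Wnt7b and Wnt8b are known from the neural tube, Wnt3 and Wnt4 from epithelia among other sites, and Wnt5a, Wnt5b and Wnt11 from mesenchyme and forming cartilage.

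Reads on genes numbered 14513993 to 16350892 a library. Kdm6a itself was read in every library, at 47.3 and 55.5 CPM in wild type, against 39.7 and 30.8 in male and 49.7 and 62.7 in female knockouts, and reads over a whole gene do not check a partial deletion. The libraries fell into 2 read-assignment sets. In wt1, mko2 and fko1, 21.3% to 22.0% of reads lay outside genes, and in wt2, mko1 and fko2, 27.5% to 27.8%. Each genotype had 1 library in each set. Rn45s, the ribosomal RNA precursor, stood at 9368 and 3830 CPM in wild type and between 29949 and 49716 CPM in the knockouts. Markers of crest mesenchyme were read in all libraries, 12 of 12 genes summing to 3137 and 3169 CPM in wild type and 2526 to 3219 CPM in the knockouts. By gene, 11 of the 12 had a log2 fold change above 0 in each knockout. In the planned edgeR fit 1 passed, Twist2 in the male, named after its values were seen (1.10, edgeR adjusted p = 0.0151). Col1a1 was the member below 0 (-0.75 in the female and -0.43 in the male), at 1197 and 1319 CPM in wild type and 602 to 992 CPM in the knockouts.

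Of the 10 ligands, 5 lay below both wild-type libraries in all 4 knockout libraries: Wnt7b, Wnt1, Wnt8b, Wnt3 and Wnt7a. Wnt4 was the single ligand above both in all 4, and Wnt5a, Wnt5b, Wnt11 and Wnt3a overlapped. In bulk RNA, fewer cells of a type and less RNA per cell cannot be told apart. Over all 14521 genes tested, 29.5% lay below and 9.83% above in the same way. After scaling by TMM factors, which correct for differences in RNA make-up, these shares were 20.1% and 18.9%, and the ligands fell into the same 3 classes. Library totals alone put the median gene 0.12 lower on the log2 scale in either knockout than the TMM scale does (-0.12 in both comparisons), and the fold changes below are on the TMM scale. As the ligands were chosen with these values known, nothing is read from the counts against the shares. CPM are compared only within a gene, as transcript lengths were not used.

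**Figure D1:**
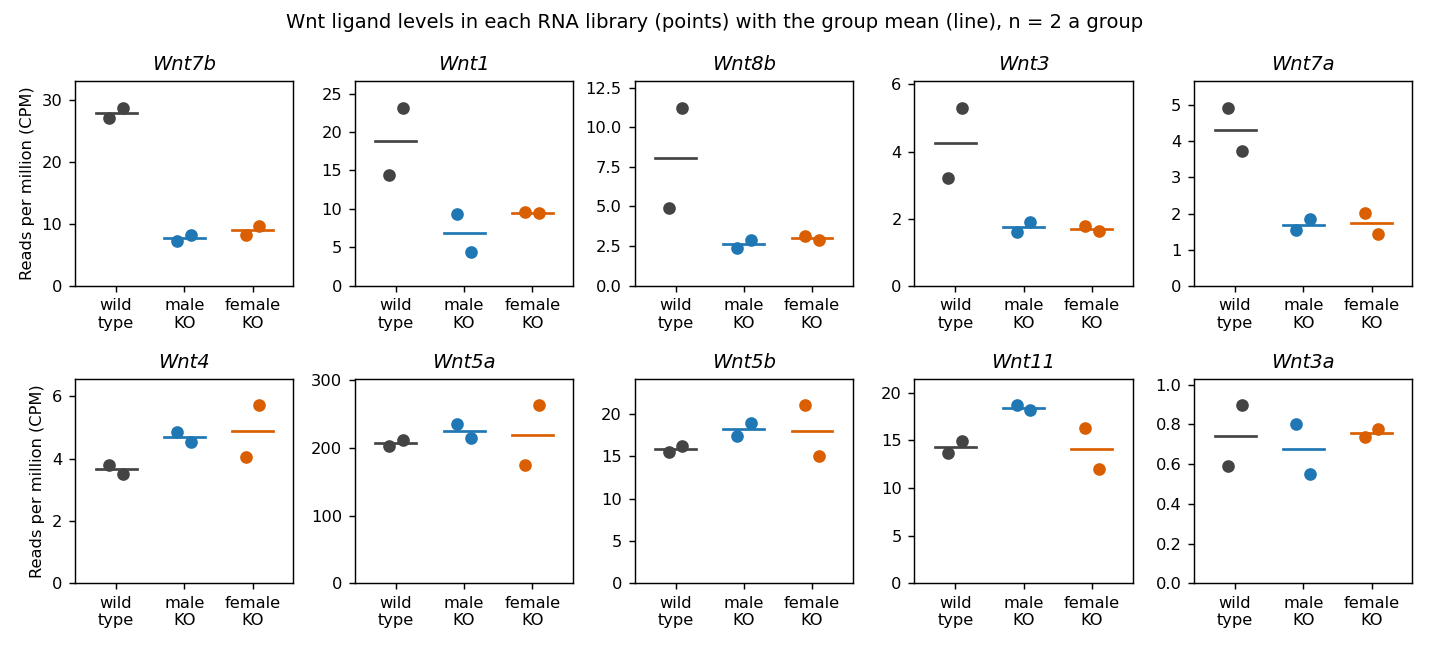
Library-size-normalised counts (CPM, vertical axis from 0) of each Wnt ligand in the 2 wild-type, 2 male knockout and 2 female knockout libraries (points), with the mean of each group as a line. In the upper row all 4 knockout points lie below both wild-type points; in the lower row only Wnt4 keeps its groups apart.

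Wnt7b had the clearest separation. It is made in the ventricular zone of the brain and in some epithelia, and acts on the growth of brain vessels. It stood at 27.1 and 28.7 CPM in wt1 and wt2, at 7.27 and 8.13 in mko1 and mko2, and at 8.16 and 9.67 in fko1 and fko2. The wild-type pair differed by far less than the distance to any knockout library. The log2 fold change was -1.74 (SE 0.167) in male and -1.53 (SE 0.165) in female knockouts, that is 3.33-fold and 2.89-fold lower (n = 2 a group, here and below).

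Wnt7a, its close relative with a role in the forming nervous system and the limb, was read less deeply, with 75 and 54 reads in wild type and 22 to 33 in the knockouts. Its levels were 4.93 and 3.72 CPM in wild type, against 1.53 and 1.83 in male and 2.02 and 1.43 in female knockouts. The groups did not overlap, and the fold changes were close in both sexes, -1.24 (SE 0.315) in male and -1.20 (SE 0.313) in female knockouts on the log2 scale.

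Wnt1, known from the dorsal midbrain and the boundary of midbrain and hindbrain, stood at 14.4 and 23.2 CPM in wild type, against 9.27 and 4.34 in male and 9.63 and 9.41 in female knockouts. Here both the wild-type and the male knockout libraries were far apart, while the female pair was close. The log2 fold changes were -1.35 (SE 0.334) in male and -0.85 (SE 0.325) in female knockouts. Wnt8b, known from the forebrain and the dorsal midline of the cortex, had wild-type libraries that were further apart in proportion, at 4.93 and 11.2 CPM in wt1 and wt2. The knockouts lay close together below it, at 2.40 and 2.87 CPM in the male and 3.13 and 2.86 in the female. Its log2 fold changes were -1.48 (SE 0.369) and -1.30 (SE 0.363) in the male and female knockout.

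Wnt3, known from the surface ectoderm of the face and from neural tissue, was read 49 and 77 times in wild type and 24 to 31 times in the knockouts. Its levels were 3.22 and 5.31 CPM in wild type, against 1.60 and 1.90 in male and 1.78 and 1.62 in female knockouts. As for Wnt8b, wt2 was the higher of the wild-type pair and the 4 knockout libraries lay close together. The log2 fold changes were -1.15 (SE 0.315) in male and -1.19 (SE 0.316) in female knockouts. Wnt3a, which acts with Wnt1 in the dorsal neural tube, did not share this pattern. It was read few times, with 9 and 13 reads in wild type, 12 and 9 in male and 12 and 12 in female knockouts. Its fold changes, -0.02 (SE 0.44) and 0.15 (SE 0.43), had the widest standard errors of the 10 ligands.

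Across the 6 libraries the 5 ligands that were lower had pairwise Pearson correlations of log2 CPM from 0.67 (Wnt1 with Wnt7a) to 0.98 (Wnt3 with Wnt8b). These describe 6 libraries that share genotype, set and depth, and carry no test.

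Among the ligands known from mesenchyme, Wnt5a drives outgrowth of the facial prominences and limbs. It stood at 203 and 212 CPM in wild type, against 236 and 215 in male and 175 and 263 in female knockouts. The wild-type libraries lay between the female ones, and the log2 fold changes of 0.24 (SE 0.172) and 0.19 (SE 0.172) in the male and female knockout were of the size of their errors. Wnt5b, which acts in growing cartilage, was at 15.5 and 16.2 CPM in wild type and between 15.1 and 21.0 CPM in the knockouts, with fko1 highest and fko2 lowest. Its log2 fold change was 0.32 in either comparison (SE 0.203).

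Wnt11, which guides cell movement and kidney branching, was the ligand whose knockouts differed most from each other among those of mesenchyme. It stood at 13.7 and 15.0 CPM in wild type, against 18.7 and 18.2 in male and 16.3 and 12.01 in female knockouts. Both male libraries lay above wild type (log2 fold change 0.48, SE 0.196) and the female ones on either side of it (0.11, SE 0.198). The difference between female and male knockout was -0.37 (SE 0.196). Wnt4, needed for kidney tubules and the female gonad, stood at 3.81 and 3.51 CPM in wild type, against 4.87 and 4.53 in male and 4.05 and 5.71 in female knockouts. Its groups did not overlap, at 51 to 88 reads a library, and the log2 fold changes were 0.48 (SE 0.24) and 0.53 (SE 0.239).

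**Figure D2:**
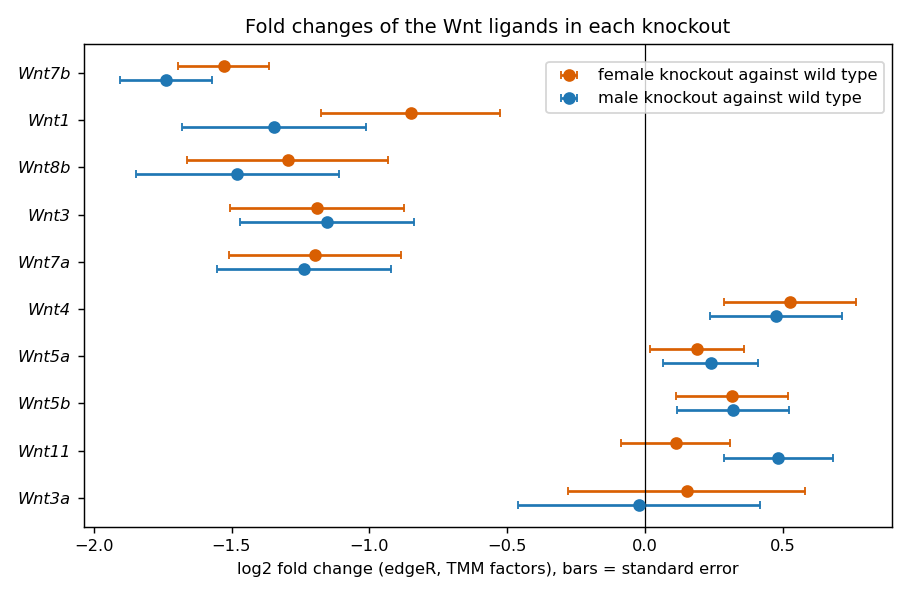
Log2 fold changes of the Wnt ligands against wild type (horizontal axis) in the female and the male knockout, with standard errors from edgeR as bars. The 5 ligands at the top lie between -1.74 and -0.85 in both comparisons, which share the wild-type libraries, and the other 5 between -0.02 and 0.53.

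In edgeR's quasi-likelihood test over all 14521 genes (Benjamini-Hochberg adjusted p below 0.05), 1 of 10 ligands was called lower and none higher in each knockout, Wnt7b both times. Of all genes, 0.82% were called lower and 0.303% higher in the female knockout, and 1.96% and 0.379% in the male. Once the set entered the fit as a term, 5 of 10 were called lower in each knockout, the same 5 named above, where 11.1% of all genes were called lower and 12.2% higher in the female, and 12.7% and 12% in the male. DESeq2 called 2 of 10 lower in the female (Wnt7b and Wnt8b, 2.64% of all genes) and 3 in the male (these and Wnt1, 4.2%). Nothing is read from these counts, since the ligands were chosen on this contrast. Without mko1 or without mko2, no ligand was called in the male knockout, and the whole comparison then called 3 and 2 genes. No ligand was called between female and male knockout (0 of 10 in edgeR and in DESeq2), where edgeR called 0.0344% of all genes. With 2 libraries a group this does not show that the knockouts are alike. The largest log2 difference between them was in Wnt1, at 0.50 (SE 0.341).

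Within each set, 1 library of each knockout can be set beside the wild-type library of the same set. All 20 such ratios of the 5 lower ligands were below 0, from -2.07 to -0.44 on the log2 scale. Their sign follows from the grouping above, since every knockout library lay below both wild-type libraries, and only their size adds to it. Wnt7a varied least, from -1.31 to -1.12. Wnt7b was at -1.59 and -1.63 in the set with fewer reads outside genes (female, then male) and -1.47 and -1.84 in the other. Wnt8b was at -0.51 and -0.67 in the first set and -1.86 and -2.07 in the second. For Wnt3 the ratios were -0.70 and -0.65 against -1.59 and -1.57. Both ratios of a set share its 1 wild-type library, and wt2 was the higher of the wild-type pair for both ligands. Set and wild-type library therefore cannot be told apart here. Wnt1 in the female knockout was at -0.44 and -1.20. Wnt4 was above 0 in all 4 ratios (0.23 to 0.79), which its grouping likewise fixed, and no other ligand was on 1 side throughout. Of all genes tested, 29.5% had all 4 ratios below 0 and 32% above.

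**Figure D3:**
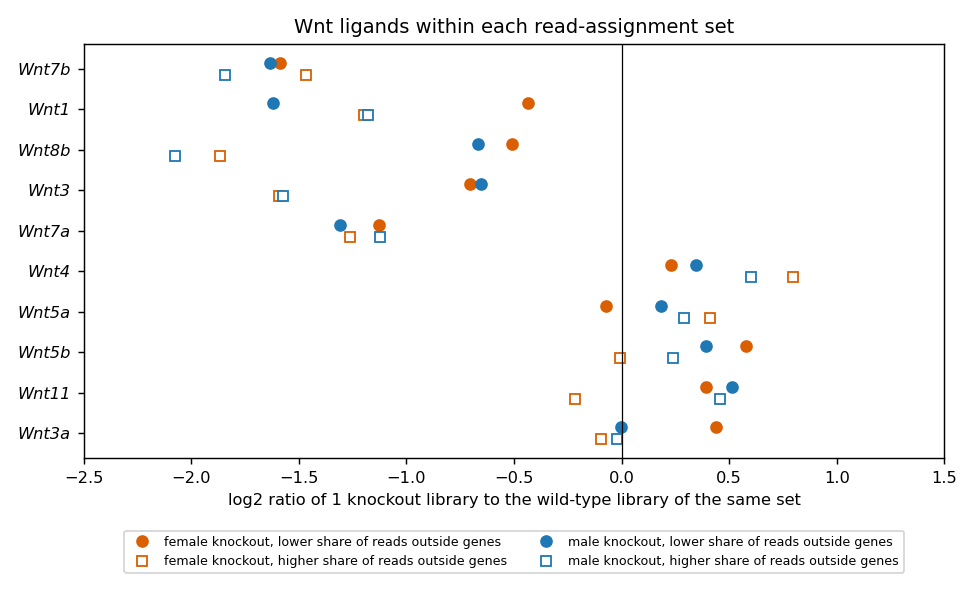
Log2 ratio of each knockout library to the wild-type library of the same read-assignment set (horizontal axis), by ligand. Filled circles are the set with 21.3% to 22.0% of reads outside genes and open squares the set with 27.5% to 27.8%. For Wnt8b and Wnt3 the squares lie further from 0 than the circles. All ratios of a set share 1 wild-type library.

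Promoter sequences of ligands that were lower together are shown so that their base make-up can be compared. The RefSeq promoter table used (build GRCm38.p6) was matched for 8 of 10 ligands, the unmatched being Wnt5a and Wnt7b. The 250 bases before the annotated start are given 5′ to 3′ on the gene's strand, with CG dinucleotides, the sites of DNA methylation, in capitals. They lie at chr15:98789607-98789856 (Wnt1, plus strand), chr11:103773925-103774174 (Wnt3, plus strand, inside the annotated span of Wnt9b), chr6:91411354-91411603 (Wnt7a, minus strand, overlapping the gene model Gm30437) and chr19:44493222-44493471 (Wnt8b, plus strand). The windows of Wnt1 and Wnt8b overlap no annotated gene.
Wnt1: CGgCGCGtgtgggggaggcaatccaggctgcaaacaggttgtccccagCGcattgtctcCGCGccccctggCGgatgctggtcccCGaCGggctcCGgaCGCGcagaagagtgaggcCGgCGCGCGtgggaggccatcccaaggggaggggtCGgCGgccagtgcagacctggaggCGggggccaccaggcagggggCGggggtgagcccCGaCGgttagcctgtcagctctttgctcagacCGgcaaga
Wnt3: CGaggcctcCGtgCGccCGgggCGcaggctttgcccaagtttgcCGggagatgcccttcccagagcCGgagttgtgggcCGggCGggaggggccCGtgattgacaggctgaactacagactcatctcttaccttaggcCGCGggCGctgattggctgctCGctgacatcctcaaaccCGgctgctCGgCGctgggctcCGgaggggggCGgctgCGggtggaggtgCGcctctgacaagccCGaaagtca
Wnt7a: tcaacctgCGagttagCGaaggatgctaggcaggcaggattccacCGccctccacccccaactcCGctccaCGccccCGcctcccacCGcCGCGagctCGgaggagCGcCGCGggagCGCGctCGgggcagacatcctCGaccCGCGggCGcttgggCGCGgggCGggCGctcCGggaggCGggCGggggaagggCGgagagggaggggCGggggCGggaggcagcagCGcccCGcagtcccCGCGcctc
Wnt8b: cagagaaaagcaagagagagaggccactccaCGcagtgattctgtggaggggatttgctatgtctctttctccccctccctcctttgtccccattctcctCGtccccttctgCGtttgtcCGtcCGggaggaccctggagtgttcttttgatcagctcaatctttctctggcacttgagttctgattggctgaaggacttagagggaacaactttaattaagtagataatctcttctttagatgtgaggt
The Wnt7a window held 34 CG dinucleotides and 77.6% G or C, Wnt1 23 and 71.6%, and Wnt3 22 and 68%. Wnt8b stood apart with 5 and 48.4%, near the median of 6 and 52.4% over 32841 promoters in the table. Wnt4, the ligand that was higher, held 44 and 85.2%. CG content far above the median and CG content near it thus both occur among the ligands that were lower. A search of both strands for CTTTGA (the TCF/LEF core, in 13.8% of all promoters), TAATCC (Otx, 6.25%), CAGATG (a neurogenin E-box, 14.4%), ACAATG (SOX, 10.7%) and TATAAA (the TATA box, 12.4%) found 1 match in these 4 windows. This was ACAATG in Wnt1, on the opposite strand, beginning 200 bases before the start. In the other matched ligands, 1 start of Wnt11 had CTTTGA (opposite strand, 50 bases before) and TATAAA (29 bases before), another start of Wnt11 had TAATCC (opposite strand, 229 bases before), and 1 start of Wnt5b had CTTTGA and CAGATG (71 and 183 bases before).

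The marker lists were written with earlier results of these data known, so their counts are given as a description. Markers of the neural tube and roof plate mostly moved in the same direction as the 5 lower ligands. Their summed level was 289 and 341 CPM in wild type and 123 to 160 CPM in the knockouts, with 13 of 13 genes found and none at 0 in any library. In edgeR, 7 of 12 tested were called lower in the female and 8 of 12 in the male knockout, beside 0.82% and 1.96% of all genes. None was called higher, though 2 in the female and 3 in the male had a log2 fold change above 0. Once the set entered the fit, 9 were called lower and 1 higher in each knockout. In that fit 11.1% of all genes were called lower and 12.2% higher in the female, and 12.7% and 12% in the male. The medians of the planned fit were -1.29 and -1.32 against 0.01 for all genes in each. Lhx2 of the forebrain stood at 61.1 ± 11.4 CPM in wild type and at 21.6 ± 6.22 and 24.2 ± 9.57 in the male and female knockout, and Lmx1a of the roof plate at 32.0 ± 6.06, 10.9 ± 3.6 and 12.7 ± 0.905 (mean ± SD, n = 2). Lmx1a was called lower in each knockout (edgeR adjusted p = 0.0217 in the male, 0.0485 in the female) and Lhx2 in the male (0.0388, against 0.0665 in the female). Given how the list was written, these p-values are a description as well. Without mko1 or without mko2 none of these markers passed in the male, and without wt2 or without fko1 4 of 13 passed in the female. Emx2, the marker of this list with the highest mean CPM, did not share the pattern (42.3 ± 6.21, 40.0 ± 5.37 and 35.8 ± 2.5 CPM). Markers of surface epithelium summed to 23.5 and 17.02 CPM in wild type and 17.5 to 22.9 CPM in the knockouts. None of 9 tested passed the planned edgeR fit in either, and Krt14 was at 0 in a library. With the set in the fit, 1 of the 9 was called higher in the female and none in the male. In that fit, 4 of 12 crest mesenchyme markers were called higher and 1 lower in the female, and 3 and 1 in the male. The shares of all genes in that fit are those given above. The part of neural tube cells in the levels of Wnt1, Wnt3, Wnt7a, Wnt7b and Wnt8b was not tested.

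**Figure D4:**
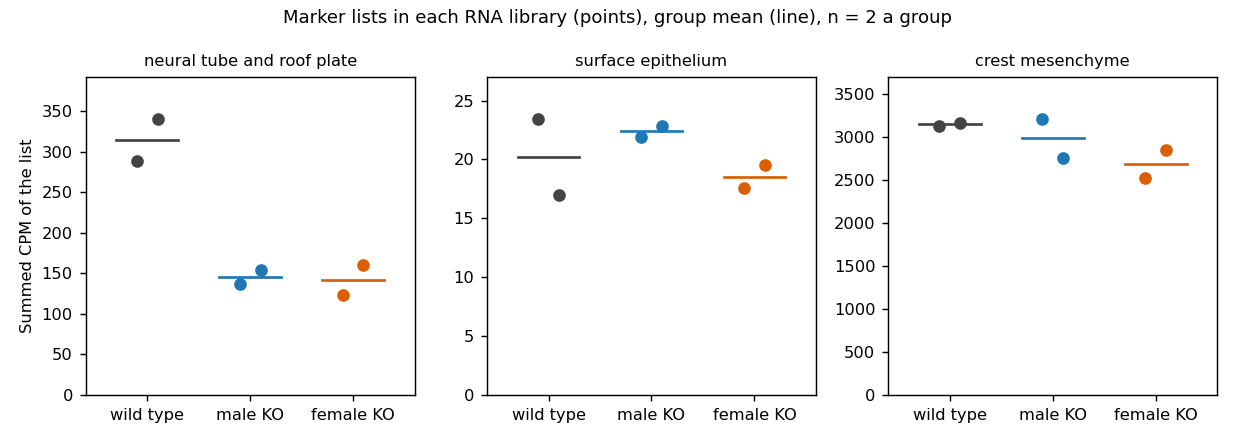
Summed CPM (vertical axis from 0) of marker lists of the neural tube and roof plate, of surface epithelium and of crest mesenchyme in each library (points), with group means as lines. The neural tube sum is 289 and 341 CPM in wild type and 123 to 160 CPM in the knockouts, and the epithelial sums overlap. The crest mesenchyme sums of both female knockout libraries (2526 and 2847 CPM) lie below those of wild type (3137 and 3169 CPM). By gene, 11 of the 12 crest mesenchyme markers had a log2 fold change above 0 in the female knockout, and Col1a1 was below 0.

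The 9 other Wnt genes of the mouse were read at low levels. Of these, 5 passed the filter, and none was called in either knockout (edgeR; 0 of 5 at an unadjusted p below 0.05, and 0 in DESeq2). Wnt9a stood at 9.95 ± 1.33 CPM in wild type, against 11.8 ± 4.37 in male and 10.4 ± 2.47 in female knockouts, and Wnt2b at 4.82 ± 0.398, 4.15 ± 1.2 and 3.14 ± 0.883. Several Wnt genes lie next to each other in the genome. In the RefSeq gene order Wnt10b, Wnt9b and Wnt9a adjoin Wnt1, Wnt3 and Wnt3a. Wnt10b had 0 to 3 reads and Wnt9b 1 to 4 reads a library, too few to compare with their lower neighbours. Wnt9a, beside the ligand Wnt3a, had a log2 fold change of 0.36 (SE 0.268) in male and 0.18 (SE 0.269) in female knockouts.

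The rest of the pathway was taken from 8 lists by role, which include the other Wnt genes and hold 83 genes, 75 of them tested. In the planned edgeR fit none of the 75 passed in either knockout, where 1.12% of all genes passed in the female and 2.34% in the male. At an unadjusted p below 0.05, 2 were higher and 15 lower in the female, where 1299 of all 14521 genes were higher and 1546 lower (19.6% in either direction). In the male 7 were higher and 9 lower, where 1113 of all genes were higher and 1816 lower (20.2%). DESeq2 called Rspo1 lower in the female (2.64% of all genes) and Apc and Draxin in the male (4.2%), names chosen after their values were seen. Once the set entered the fit, 19 passed in each knockout, 3 higher and 16 lower in the female and 7 and 12 in the male, beside 23.3% and 24.7% of all genes. By direction, 12.2% of all genes were higher and 11.1% lower in the female in that fit, and 12% and 12.7% in the male. The lists were written with earlier results of these data known, and the set term was added after seeing the data. Nothing is therefore read from these counts against the shares. The medians of the lists were -0.07 and -0.04, beside 0.01 for all genes in each.

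**Figure D5:**
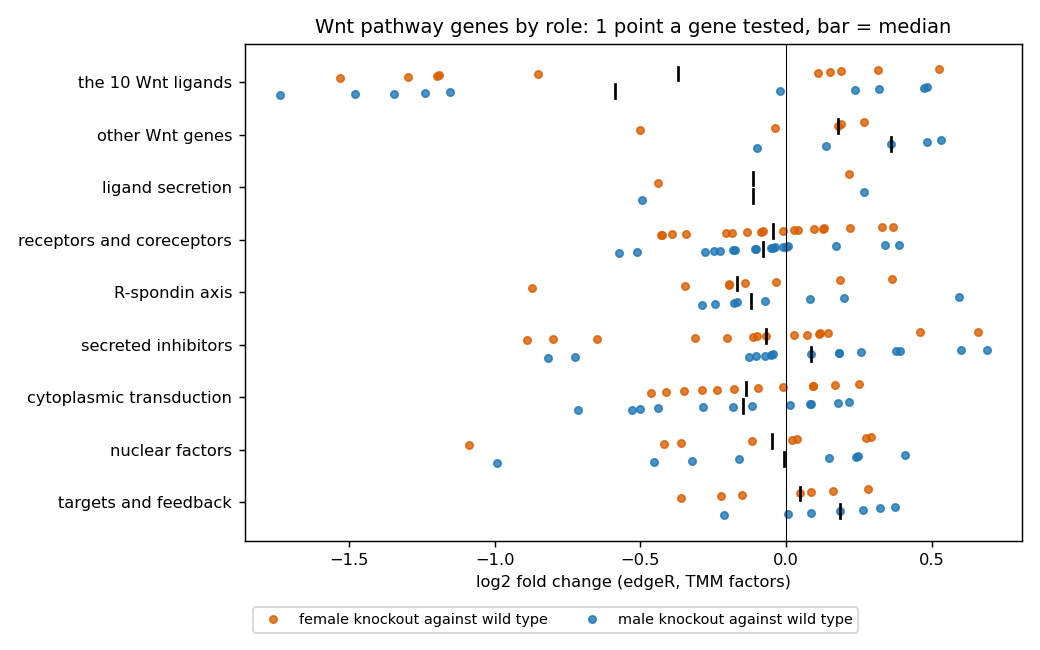
Log2 fold change (horizontal axis) of each Wnt pathway gene tested, by role, in the female and male knockout against wild type, with the median of each list as a black bar. The 10 ligands spread from -1.74 to 0.53; of the other genes, Tcf7l2 lies lowest, at -1.09 and -0.99.

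Secretion genes differed in sign: Wls stood at 165 ± 4.03 CPM in wild type, against 183 ± 4.92 in male and 176 ± 6.21 in female knockouts, and Porcn at 19.4 ± 2.26, 12.7 ± 0.636 and 13.2 ± 2.0. Neither passed the planned test (edgeR adjusted p = 0.164 for Porcn in the male and 0.216 in the female, 0.264 and 0.345 for Wls). In the fit that includes the set, Porcn was called lower in the male and female (-0.49 and -0.44, edgeR adjusted p = 0.0287 and 0.043) and Wls higher in the male (0.27, edgeR adjusted p = 0.034). That fit, added after seeing the data, called 23.3% of all genes in the female and 24.7% in the male. All 18 receptor and coreceptor genes were tested, with log2 fold changes from -0.43 to 0.37 in the female and -0.57 to 0.39 in the male. Fzd2, a Frizzled of mesenchyme, had a log2 fold change of 0.01 (SE 0.135) in the male and -0.09 (SE 0.135) in the female, and Ptk7, a polarity receptor, -0.05 and -0.13 (SE 0.131). The coreceptors through which Wnt7a and Wnt7b signal, Reck and Adgra2, were looked up after the values of Wnt7b were seen. Adgra2 stood at 180 ± 17.1 CPM in wild type, against 142 ± 24.5 in male and 123 ± 6.68 in female knockouts, and Reck at 73.0 ± 6.9, 59.2 ± 8.11 and 53.0 ± 7.28. Neither passed the planned test, and both passed as lower in the female in the fit that includes the set (edgeR, -0.43 and -0.35, adjusted p = 0.0134 and 0.0209).

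In the R-spondin axis, which amplifies Wnt signals, Lgr4 and Lgr5 were at -0.20 (SE 0.14) and -0.35 (SE 0.145) on the log2 scale in the female and -0.07 and -0.29 in the male, and none of 8 tested passed. Rspo1, singled out after its values were seen, stood at 18.1 and 16.3 CPM in wild type, against 14.2 and 12.7 in male and 7.97 and 9.41 in female knockouts (female log2 fold change -0.87, SE 0.175, edgeR adjusted p = 0.0548). In the fit that includes the set, Lgr5 was called lower in each knockout and Rspo1 in the female. The calls of that fit in this paragraph stand beside 23.3% of all genes in the female and 24.7% in the male. None of 15 secreted inhibitors passed the planned test. With the set in the fit, Dkk1 was called higher in each knockout (0.46 in the female and 0.60 in the male). Draxin was called lower in each (-0.65 and -0.80), and Apcdd1 and Sfrp5 higher in the male. Dkk1, Draxin and Sfrp5 were named after their values were seen. Sfrp2, which binds Wnt proteins, was at 0.03 (SE 0.181) in the female and 0.18 (SE 0.181) in the male, and Apcdd1 at 0.14 and 0.38 (SE 0.133).

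Inside the cell, Ctnnb1, which encodes beta-catenin, was at 1240 ± 36.8 CPM in wild type, against 1291 ± 24.2 in male and 1219 ± 89.8 in female knockouts. The groups overlapped. Csnk1a1, a kinase of the complex that degrades beta-catenin, was at -0.01 and 0.02 (SE 0.131) on the log2 scale in the female and male. None of 12 cytoplasmic genes passed the planned test. In the fit that includes the set, 4 of 12 were called lower in each knockout, beside 11.1% and 12.7% of all genes in the female and male. These were Apc (-0.46 and -0.71), Daam1, Dvl3 and Gsk3b, named after their values were seen. Tcf7l2, a TCF factor strongly expressed in the thalamus and midbrain, stood at 262 and 380 CPM in wild type, against 121 and 175 in male and 87.7 and 193 in female knockouts. All 4 knockout libraries lay below both wild-type libraries, but libraries of a genotype differed widely. The log2 fold changes were -0.99 (SE 0.326, edgeR adjusted p = 0.153) and -1.09 (SE 0.326, edgeR adjusted p = 0.156). Bcl9, a cofactor of beta-catenin, was at -0.45 and -0.42 (SE 0.147). Both were called lower in each knockout in the fit that includes the set.

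None of the 7 target and feedback genes was called in the planned test, with 1 lower at an unadjusted p below 0.05 in the female and 1 higher in the male, and 0 in DESeq2. Ccnd1, a cyclin, was at 199 ± 18.4 CPM in wild type, against 195 ± 15 in male and 164 ± 16.4 in female knockouts, and Dact1, an antagonist of Dishevelled, at 135 ± 6.38, 125 ± 5.01 and 129 ± 11.7. Axin2, the most widely used readout of beta-catenin signalling and singled out for that reason, stood at 93.4 and 121 CPM in wild type, against 91.1 and 78.9 in male and 75.8 and 77.4 in female knockouts. On the log2 scale its difference from wild type was -0.36 (SE 0.148) for females and -0.21 (SE 0.148) for males, with edgeR adjusted p of 0.233 and 0.416. In the fit that includes the set, Axin2 was called lower in the female (-0.35, edgeR adjusted p = 0.0365), beside 23.3% of all genes called. Tnfrsf19, named after its values were seen, was called higher in the male (0.33, edgeR adjusted p = 0.0465), beside 24.7%.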

How the data were processed

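RNA-seq of 6 libraries was analysed. The authors deposited whole-number read counts per gene, per the file headers without normalization, followed by HTSeq summary lines, which were kept out of library totals and tests. Per the submitters' processing notes, bedtools, Bowtie2, HTSeq, MACS2, SAMtools, TopHat2 and Trimmomatic were used on mm9, versions not given in the sources used here; the kit was stranded, per the labels' protocols, but the strand setting and annotation of the counting are not given there either. The histone and UTX peak files are on mm9, the reference tables on GRCm38.p6, so peaks were not assigned to Wnt genes and are not used here.

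CPM scale a gene's count to the library's reads on genes. All 6 libraries entered 1 edgeR 4.0.16 quasi-likelihood fit of 3 group means (R 4.3.3, TMM, filterByExpr), with Benjamini-Hochberg adjustment over 14521 genes and a threshold of 0.05. Standard errors come from the F statistic. The fit was tested on simulated counts. Alternatives were DESeq2 1.42.0, its size factors, no filter, only the groups compared, a replicate block and leaving out each library; the set term and library totals were added after seeing the data. The set splits libraries at the median share of reads outside genes. The ligands and lists were chosen with earlier results of these data known. The text names all ligands, from each pathway list the genes that passed or, where none did, the 2 with the highest mean CPM, and at most 3 genes a marker list; other names are said to be chosen later. Adgra2 is listed as Gpr124 in the table. Nothing says that libraries of a group came from separate embryos, so p-values measure the spread between these libraries, which may be technical.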

Additional observations from a re-analysis of the deposited data

How the results depend on the processing

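Of 390 fold changes of the ligands recomputed under 13 alternatives, 363 stayed within the spread of replicates, 27 moved beyond it, and the 2 that were called, both of Wnt7b, did not reverse in any (Wnt7b ranged over -1.65 to -1.46 in the female, -1.86 to -1.65 in the male). Leaving out 1 of 2 libraries moves a group mean by about this spread or less, and the other settings mostly change the fold change little. The count of 363 therefore does not measure robustness. Wnt8b ranged from -1.75 to -0.64 in the female and -1.94 to -0.82 in the male knockout. Wnt3a, Wnt5a and Wnt11, all near 0 in the female, changed sign in 1 or 2 alternatives. Called ligands in the female knockout numbered 2 with DESeq2, 5 with the set as a term, and 1 to 3 when a library was left out (3 without wt1). In the male they numbered 3 with DESeq2, 4 with only the groups compared, 5 with the set, and 0 to 4 when a library was left out (4 without wt1, fko1 or fko2, 0 without mko1 or mko2). Other pathway genes called in the female numbered 1 with DESeq2, 19 with the set, and 0 to 3 with a library left out (3 without fko2, 1 without wt1). In the male they numbered 2, 4 with only the groups compared, 19, and 0 to 5 (5 without fko2, 4 without wt1 or fko1). Over all genes, the 163 calls in the female became 520 with DESeq2, 33 in a fit of the compared groups and 3384 with the set, and 60 to 1048 with a library left out. The 340 calls in the male became 764, 938 and 3589, and 2 to 990. The 5 calls between the knockouts became 4 with DESeq2 and 5 to 9 with a library left out. Where a group is left with 1 library, it is assumed to vary like the others. The cause of these shifts was not tested. The replicate numbers do not pair the libraries: deviations of same-numbered libraries correlated at 0.43 for wt and fko but at -0.24 for wt and mko and -0.23 for mko and fko. With the replicate block, 329 genes were called in the female and 481 in the male, 1 ligand in each, and 1 (Tcf7l2) and 2 (Draxin and Tcf7l2) other pathway genes. A crossed pairing for the male is the pairing by set above. Wnt3a, at 9 to 13 reads a library, is limited by depth.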

Other observations

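Genes whose log2 CPM followed a ligand most closely over the 6 libraries were looked up among 11494 genes with a mean of at least 5 CPM (11495 for Wnt3a). For Wnt7b these were Pak1, a kinase of the cytoskeleton, Syt5, a synaptotagmin, and Cdh22, a cadherin of the brain (Pearson r of 0.999, 0.999 and 0.998). For Wnt1 they were Sh2b1, Rnf31 and Evi5l (0.996, 0.991 and 0.990), for Wnt5a Mob3c, Snx25 and Clint1 (0.988, 0.974 and 0.967), and for Wnt3a 4930503L19Rik, B130024G19Rik and Malt1 (0.976, 0.966 and 0.966). These are descriptions over 6 libraries that share genotype and set.

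Markers of other cell types of the head were read as follows. Peripheral neuron markers summed to 1172 and 1229 CPM in wild type and 610 to 1062 CPM in the knockouts. Of the 5, 3 had a log2 fold change above 0 in each knockout (median 0.31 in the female and 0.12 in the male). None passed the planned edgeR fit in either. With the set in the fit, 1 was called higher and 1 lower in the female and 1 lower in the male, beside 23.3% and 24.7% of all genes. Elavl3 and Tubb3, with the highest mean CPM of the list, were the members below 0 (Elavl3 at -0.94 and -0.95, Tubb3 at -0.27 and -0.40 in the female and male). Schwann and glial markers summed to 328 and 379 CPM in wild type and 319 to 405 in the knockouts, melanocyte markers to 20.3 and 21.4 and to 23.7 to 34.4. Endothelial markers, the cells on which Wnt7a and Wnt7b are known to act in the brain, summed to 11.6 and 15.2 CPM in wild type and 9.97 to 14.2 in the knockouts. Leukocyte markers summed to 8.02 and 9.99 CPM and to 4.85 to 6.94, skeletal muscle markers to 2.83 and 3.31 and to 0.909 to 2.26 (Myod1 and Myf6 at 0 in a library), and erythroid markers to 66.6 to 113 and 63.7 to 253, highest in mko2 (Hba-a1 at 0 in every library).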
